A study of Mus musculus with 6 samples.

Results

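The genes described here encode the mitochondrial ribosomal proteins, taken as every row of the deposited count table whose symbol begins with Mrpl or Mrps followed by a digit. The rule found 77 genes among the 13007 of the table, 48 named Mrpl and 29 named Mrps, and all 77 passed the filter on low counts. RNA sequencing had been done on 3 libraries of acute erythroid leukemia (AEL) cells and 3 of normal erythroid precursors (NC) from bone marrow of C57BL/6 mice. AEL cells were GFP-positive, carried an ERG overexpression construct that co-expresses GFP, and are labelled Trp53-/- and ERG-expressing. NC cells are labelled wild type and were sorted by 2 red cell surface markers, CD71 (the receptor for transferrin) and Ter119. The promoter driving ERG, the age of the animals and the animal behind each replicate were not found in the labels. The titles call the libraries biological replicates without naming separate animals or cultures, so the p-values rest on variation among the 6 libraries, which may in part be technical. A source label shared by both groups names mutations of SETBP1 and ASXL1, at odds with the wild-type genotype given for NC.

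Mitochondria keep a small genome whose proteins are core subunits of the respiratory chain, and a dedicated ribosome translates them. Its RNAs are made inside the organelle, whereas every one of its proteins is encoded in the nucleus, translated in the cytosol and imported. The large subunit (mostly Mrpl proteins) carries the peptidyl transferase center, and the small subunit (mostly Mrps proteins) reads the codon. Many of these proteins have bacterial counterparts, and others are found only in mitochondria. Erythroid precursors depend on mitochondria for heme synthesis, and red cells discard them during terminal maturation.

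Library totals ran from 8171676 to 9945330 counts, and a count of any member in a library lay between 14 and 1518. Trp53, labelled as deleted in AEL, stood at 1171, 1092 and 976 CPM (counts relative to library size, scaled with TMM factors) in the AEL libraries and 177, 175 and 162 CPM in those of NC. Counts summed over the whole gene cannot check that genotype. Erg was at 790, 556 and 684 CPM in the AEL libraries, with 4.38, 7.56 and 8.52 CPM in those of NC, where reads of an introduced ERG cannot be told apart from the mouse gene. Of 8 erythroid markers 6 were lower in AEL, and the list summed to 1934 to 4856 CPM there and to 21870 to 27375 CPM in NC. Markers of other marrow cells were also higher in NC: the 7 neutrophil genes summed to 16.8 to 1012 CPM in AEL and 7324 to 8492 CPM in NC, and the 7 macrophage genes to 2.48 to 26.9 and 2553 to 2981 CPM. The 6 B cell genes summed to 1.13 to 2.1 and 148 to 185 CPM, the 2 T and NK cell genes to 0.225 to 0.641 and 17.0 to 18.6 CPM, the 4 mast cell, basophil and eosinophil genes to 0.338 to 5.94 and 33.3 to 45.3 CPM, and the 5 stroma and endothelium genes to 1.92 to 7.81 and 29.6 to 44.3 CPM. Epx and Col3a1 of these lists were at 0 in every AEL library, whereas Cpa3 and Kdr overlapped between the groups. Megakaryocyte markers (4 genes, Gp1bb at 0 in AEL) summed to 41.3 to 256 CPM in AEL and 70.9 to 81.6 CPM in NC. They went different ways. Itga2b was at 244, 33.3 and 52.0 CPM in AEL and 20.5, 22.6 and 14.5 CPM in NC. Gp9 was at 2.36, 5.43 and 1.92 CPM in AEL and 52.1, 40.3 and 49.5 CPM in NC, and Pf4 overlapped. Most of these markers move with every group difference given here, and their part in it was not tested.

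The promoters of 2 rising and 2 falling members are shown first, because members of the same ribosome moved in opposite directions. They had the largest changes among called members whose AEL and NC libraries did not overlap and whose mean reached 10 CPM in the higher group, limits that leave out Mrpl23, called at 1.20 but with a mean of 5.25 CPM in AEL. The stretches run from 250 bases before the RefSeq start to 30 bases after it (GRCm38.p6, the assembly that mm10 denotes), 5′ to 3′ on the strand of the gene. Mrps18b and Mrps27 were higher in AEL, and Mrpl14 and Mrpl53 were lower. Capitals mark the ETS core CCGGAAG, the NRF1 motif (GCGC, any 2 bases, GCGC), the YY1 motif AAGATGGC and the E-box CACGTG, searched on both strands.
Mrps18b, chr17:35916411-35916690, minus strand: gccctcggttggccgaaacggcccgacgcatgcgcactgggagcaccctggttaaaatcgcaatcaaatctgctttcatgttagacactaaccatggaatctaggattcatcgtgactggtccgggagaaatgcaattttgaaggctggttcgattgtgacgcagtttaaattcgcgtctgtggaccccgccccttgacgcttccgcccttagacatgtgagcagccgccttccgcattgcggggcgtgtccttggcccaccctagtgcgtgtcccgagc
Mrps27, chr13:99344536-99344815, plus strand: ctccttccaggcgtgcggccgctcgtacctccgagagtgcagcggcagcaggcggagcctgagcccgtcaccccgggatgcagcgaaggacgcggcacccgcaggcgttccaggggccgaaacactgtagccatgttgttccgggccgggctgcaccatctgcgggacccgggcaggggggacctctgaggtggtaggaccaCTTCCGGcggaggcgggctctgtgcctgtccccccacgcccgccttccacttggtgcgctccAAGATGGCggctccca
Mrpl14, chr17:45686099-45686378, plus strand: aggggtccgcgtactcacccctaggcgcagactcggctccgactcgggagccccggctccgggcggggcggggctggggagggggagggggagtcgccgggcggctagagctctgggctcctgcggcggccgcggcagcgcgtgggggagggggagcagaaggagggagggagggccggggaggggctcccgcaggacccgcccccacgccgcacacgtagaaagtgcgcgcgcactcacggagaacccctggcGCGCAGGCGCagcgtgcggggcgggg
Mrpl53, chr6:83108858-83109137, plus strand: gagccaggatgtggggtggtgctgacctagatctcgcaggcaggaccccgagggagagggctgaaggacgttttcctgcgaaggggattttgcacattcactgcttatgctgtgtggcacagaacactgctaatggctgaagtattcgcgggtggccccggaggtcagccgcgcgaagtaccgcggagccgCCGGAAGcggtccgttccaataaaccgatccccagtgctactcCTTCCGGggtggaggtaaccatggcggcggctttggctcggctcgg

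The Mrpl53 stretch held ETS cores starting 59 and 16 bases before the start, and the Mrps27 stretch held an ETS core 48 bases before the start and a YY1 motif 15 bases into the transcript. The Mrpl14 stretch held an NRF1 motif 5 bases into the transcript. The Mrps18b stretch held none of the 4, although an ETS core began 44 bases after its start. These positions use RefSeq starts, which differ from the GENCODE starts for Mrps18b, Mrpl14 and Mrpl53. By the GENCODE start of Mrpl53 (83109040) both of its ETS cores lie inside the gene. ETS factors (the family of ERG), NRF1 and YY1 are known regulators of nuclear genes for mitochondria. RefSeq windows from 250 bases before to 50 bases after the start were found for 68 of the 77 members and for 9714 tested genes. An ETS core lay in 36.8% of the members' promoters and 20.8% of those of the tested genes, an NRF1 motif in 20.6% and 15.2%, a YY1 motif in 17.6% and 5.51%, and an E-box in 7.35% and 11.9%. Among members lower in AEL 12 of 23 held an ETS core, against 2 of 9 members higher in AEL and 11 of 36 that were not called. In the same order the counts were 4, 2 and 8 for NRF1, 4, 1 and 7 for YY1, and 2, 0 and 3 for the E-box. All tested genes were not split in this way, and no difference was tested. The median log2 fold change was -0.43 for the members with an ETS core and -0.03 for those without. With and without the motif it was 0.03 and -0.26 for NRF1, 0.04 and -0.24 for YY1, and -0.24 and -0.22 for the E-box. Mean GC content of the windows was 58.8% for members and 60.4% for tested genes. A match of letters is a description and not a binding site.

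Mitochondrial ribosomal protein genes as a whole took a similar share of the RNA in both groups, but its make-up differed. The 77 genes took 0.402%, 0.386% and 0.418% of all counts in AEL and 0.42%, 0.412% and 0.36% in NC, so the groups overlapped. On the TMM scale they summed to 3863, 3634 and 3806 CPM in AEL and 4429, 4393 and 3894 CPM in NC, and here every AEL library was below every NC library. Large subunit genes summed to 2.56, 2.41 and 2.26 times the small subunit genes in AEL and 2.45, 2.44 and 2.42 times in NC. In bulk samples, fewer cells of a type and less RNA per cell cannot be told apart.

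Of the 77 members, 12 were higher and 25 lower in AEL, and 40 were not called (edgeR quasi-likelihood test, Benjamini-Hochberg adjusted p under 0.05). Among all 12427 genes tested, 23.9% were called higher and 29.0% lower, against 15.6% and 32.5% of the members. Rises were 1.36-fold to 2.35-fold and falls 1.42-fold to 3.04-fold, with 6 rises and 7 falls of at least 2-fold. The members' median log2 fold change of AEL over NC was -0.22, and that of all tested genes was -0.05. All AEL libraries lay above all NC libraries for 15 members and below them for 31 (all tested genes, 29.9% and 36.1%). The member median lay between -0.29 and -0.06 when any 1 library was left out. With library totals alone, which moved the median of all genes to 0.14, 14 members were higher and 18 lower, with a member median of -0.04. In that fit 3800 of all 12427 tested genes were called higher and 3081 lower. Members that rose made up 32.4% of the calls, 43.8% with library totals alone and 21.9% with upper-quartile scaling, which gave 7 higher. Leaving out NC replicate 1, 2 or 3 lowered the calls of all genes from 2965 higher and 3599 lower. They became 1672, 1742 and 1776 higher and 1812, 1780 and 1812 lower, of 11455, 11460 and 11449 tested. These totals apply to every count below that leaves out an NC replicate. With these omissions 4 members were called higher and 17, 17 and 23 lower. Those 4 were Mrps18b, Mrps27, Mrpl19 and Mrps30. They and 15 of the falling members kept their call under every other scaling, filter, tool and left-out library in which they were tested, and Mrps36, Mrps16, Mrpl57 and Mrpl49 of those 15 were each not tested in 1 of them. Offsets for transcript length, given below, ended the call of Mrpl54, Mrpl18, Mrps34, Mrpl20 and Mrpl33 among the 15.

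**Figure D1:**
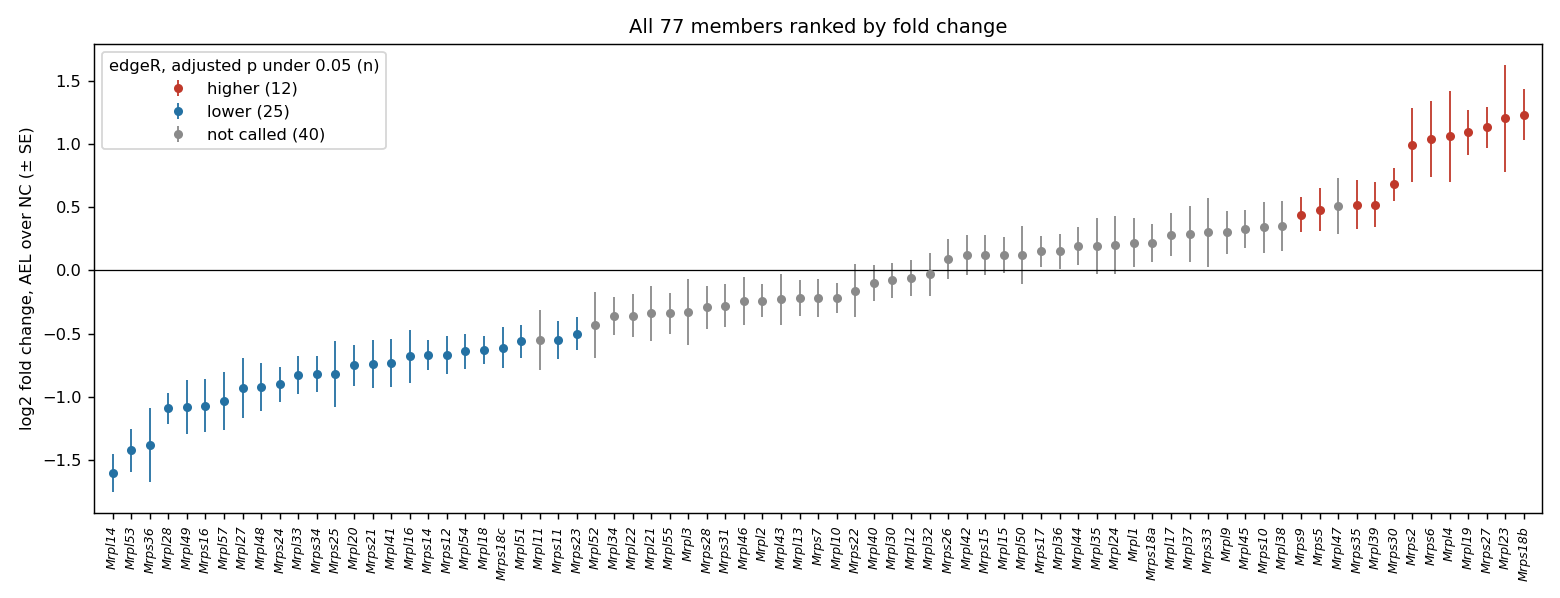
Log2 fold change of AEL over NC for each of the 77 members, ranked, with bars for ± SE and colors for the edgeR call. The 25 lower and 12 higher members lie toward either end, and the 40 not called lie between -0.55 and 0.51. That range also holds called members, such as Mrps23 at -0.50 (lower) and Mrps9 at 0.44 and Mrps5 at 0.48 (higher).

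Among the rising genes were proteins of the small subunit and of the large subunit. Mrps18b (chromosome 17, 35910379 to 35916389, GRCm38), one of 3 mammalian relatives of bacterial S18, was at 27.3, 29.9 and 33.5 CPM in the AEL libraries, with 10.8, 13.8 and 13.9 CPM in those of NC. The 2 groups did not overlap, and the log2 fold change was 1.23 (SE 0.20, edgeR adjusted p = 0.00274). Mrps27 (chromosome 13, 99344786 to 99415562), a mitochondria-specific pentatricopeptide repeat protein of the small subunit, was at 46.4, 42.3 and 44.1 CPM in the AEL libraries, with 18.6, 23.2 and 18.8 CPM in those of NC. It rose 2.19-fold with little spread in either group (SE 0.16 on the log2 scale, edgeR adjusted p = 0.00179). Mrpl19 (chromosome 6, 81957851 to 81965958), with a bacterial counterpart at the face between the subunits, was at 66.8, 66.5 and 79.8 CPM in the AEL libraries, with 32.7, 40.2 and 27.2 CPM in those of NC, a 2.13-fold rise (edgeR adjusted p = 0.00303).

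Mrps30 (chromosome 13, 118378381 to 118387252) carries a small subunit name but sits in the large subunit. It was at 92.6, 98.0 and 102 CPM in the AEL libraries, with 68.3, 59.9 and 54.6 CPM in those of NC, a rise of 0.68 on the log2 scale (SE 0.13, edgeR adjusted p = 0.0049). Mrps2 (chromosome 2, 28468066 to 28471178), a conserved small subunit protein, was at 46.5, 47.6 and 88.5 CPM in the AEL libraries, with 26.7, 35.8 and 29.7 CPM in those of NC. AEL replicate 3 stood well above the other AEL libraries, and the log2 fold change was 0.99 (SE 0.29, edgeR adjusted p = 0.0254). Without NC replicate 1, 2 or 3 it stayed at 0.85, 1.07 and 0.92 and was no longer called (edgeR adjusted p = 0.113, 0.0655 and 0.102). Mrps6 (chromosome 16, 92058270 to 92112227), another conserved small subunit protein, was at 22.7, 12.5 and 20.7 CPM in the AEL libraries, with 10.4, 8.74 and 8.06 CPM in those of NC. Mrps6 had a log2 fold change of AEL over NC of 1.04 with an SE of 0.30 (edgeR adjusted p = 0.0241), which stayed at 1.11, 0.97 and 0.92 without NC replicate 1, 2 or 3 and was no longer called (edgeR adjusted p = 0.0698, 0.102 and 0.106).

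The members that fell most were Mrpl14 and Mrpl53, both of the large subunit. Mrpl14 (chromosome 17, 45686322 to 45698495), a conserved protein of the subunit interface to which the assembly factor Malsu1 binds, was at 25.8, 22.7 and 21.3 CPM in the AEL libraries, with 79.4, 66.7 and 65.9 CPM in those of NC. Every NC library was far above every AEL library, and the fall was 3.04-fold (log2 SE 0.15, edgeR adjusted p = 0.000451). Mrpl53 (chromosome 6, 83109040 to 83109939), found only in mitochondrial ribosomes, was at 15.4, 21.1 and 18.5 CPM in the AEL libraries, with 46.8, 48.7 and 51.2 CPM in those of NC, a 2.67-fold fall (edgeR adjusted p = 0.00101). Mrpl28 (chromosome 17, 26123500 to 26126613), a conserved protein, was at 61.4, 60.9 and 69.8 CPM in the AEL libraries, with 151, 132 and 128 CPM in those of NC, a 2.14-fold fall (edgeR adjusted p = 0.000785).

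Mrps36 (chromosome 13, 100735955 to 100744659) keeps a ribosomal name but is known as a subunit of the 2-oxoglutarate dehydrogenase complex of the citric acid cycle. It was at 5.85, 4.56 and 4.57 CPM in the AEL libraries, with 15.3, 13.8 and 9.90 CPM in those of NC, the third largest fall, at 2.60-fold (edgeR adjusted p = 0.00765). Mrpl49 (chromosome 19, 6053622 to 6057785), a mitochondria-specific large subunit protein, was at 42.1, 48.4 and 29.6 CPM in the AEL libraries, with 97.6, 80.9 and 74.7 CPM in those of NC, a 2.11-fold fall (edgeR adjusted p = 0.00576). Mrps16 (chromosome 14, 20389304 to 20393634), a conserved small subunit protein whose loss causes respiratory chain deficiency in humans, was at 31.2, 19.2 and 22.9 CPM in the AEL libraries, with 52.3, 54.3 and 47.2 CPM in those of NC, a 2.10-fold fall (edgeR adjusted p = 0.00561). All 6 of these falls kept their call under every other scaling, filter, tool and left-out library in which the gene was tested.

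**Figure D2:**
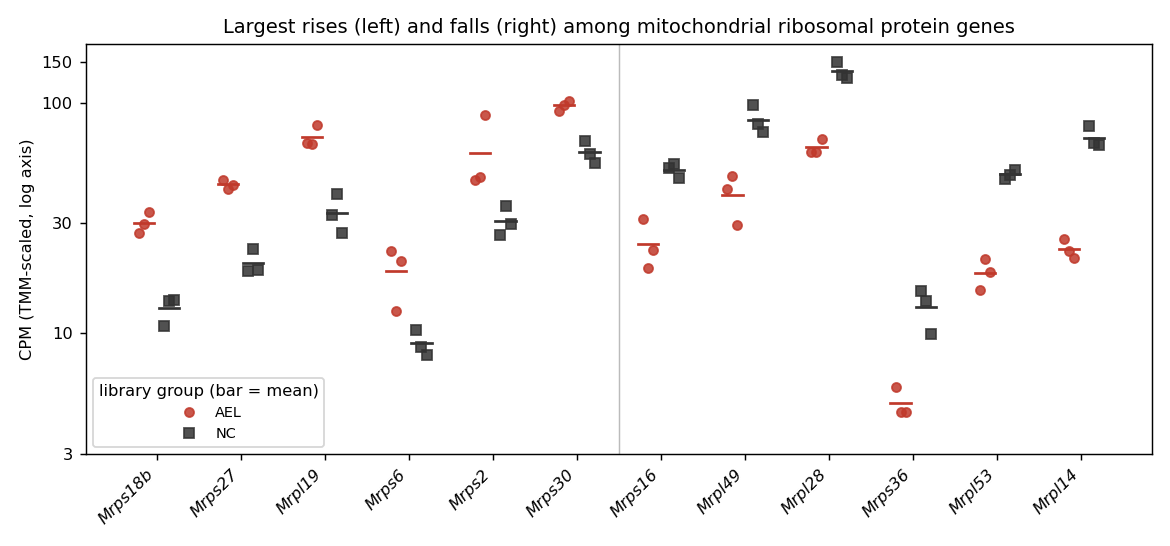
CPM of each library on a log axis for the 6 largest rises and 6 largest falls among called members with separated groups and a mean of at least 10 CPM in the higher group (Mrpl23 and Mrpl4 are left out), with a bar for the group mean. For all 12 genes the AEL and NC libraries do not overlap, and the spread within AEL is widest for Mrps2, where 1 library is at 88.5 CPM.

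Whether counting used strand is not stated, so reads of overlapping genes cannot be told apart. Exons of a neighbor on the opposite strand cover 36.0% of the exonic length of Mrpl19 (Gcfc2), 30.5% of Mrps18b (Gm16279) and 24.2% of Mrps27 (6430562O15Rik) in GENCODE vM21. Among all members such cover is largest for Mrps25 (69.8%, Nr2c2) and Mrps34 (63.4%, Mapk8ip3). A model on the same strand (Gm42688) covers 88.0% of Mrpl53, Nme3 covers 37.0% of Mrps34, and Gm49711 covers 19.9% of Mrps6. Processed pseudogenes at least 95% identical over 200 bases or more exist for Mrps18b (Gm13552), Mrps16, Mrps26, Mrpl32 and Mrps36, of which Mrps36 has 4 copies. They also exist for Mrpl21, Mrpl22, Mrpl23, Mrpl27, Mrpl41, Mrpl42, Mrpl48, Mrpl51, Mrps5, Mrps10, Mrps21, Mrps25 and Mrps33. The copy of Mrpl23 is 100% identical over 78.0% of the transcript. The counts of these genes are uncertain to that extent.

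The 3 relatives of bacterial S18 went different ways. Mrps18c, the closest counterpart, which occupies the S18 place in the small subunit, was at 49.2, 36.1 and 44.7 CPM in the AEL libraries, with 71.8, 64.4 and 62.2 CPM in those of NC, a fall of 0.61 on the log2 scale (SE 0.16, edgeR adjusted p = 0.0161). Mrps18a, which sits in the large subunit, was at 45.6, 39.2 and 46.6 CPM in the AEL libraries, with 41.1, 37.7 and 33.7 CPM in those of NC, so its groups overlapped (log2 fold change 0.22, edgeR adjusted p = 0.25). With Mrps18b risen, the relatives thus had 1 rise, 1 fall and 1 member that was not called. With offsets for transcript length, described below, Mrps18c moved to 0.03 and Mrps18a was called higher at 0.73.

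Of 11 members listed for a further known role, 2 were higher and 3 lower (45.5% called, against 52.8% of all tested genes). Mrpl12, a stalk protein that also binds the mitochondrial RNA polymerase, was at 111, 96.0 and 124 CPM in the AEL libraries, with 118, 124 and 104 CPM in those of NC, with a log2 fold change of -0.06 (SE 0.14). Mrps7, which binds the small subunit RNA, was at 68.8 ± 10.1 CPM in AEL libraries and 80.3 ± 7.34 CPM in those of NC, and Mrpl44, which has a ribonuclease-like fold, was at 32.9 ± 2.56 and 28.9 ± 1.49 CPM (SD, n = 3 each). Mrps12, a protein of the decoding center, was at 25.5, 27.3 and 27.3 CPM in the AEL libraries, with 42.5, 47.2 and 38.1 CPM in those of NC and fell by 0.67 (SE 0.15, edgeR adjusted p = 0.00987), a call that ended without NC replicate 2. Its log2 fold change was -0.16 with offsets for transcript length and -0.19 with those for coding length (edgeR adjusted p = 0.375 and 0.315). Besides Mrpl12, the members with a fold change nearest 0 were Mrpl32, at 31.4 ± 3.40 CPM in AEL libraries and 32.1 ± 3.60 CPM in those of NC, Mrpl30, at 85.6 ± 6.51 and 90.6 ± 12.2 CPM, and Mrps26, at 70.3 ± 9.59 and 66.0 ± 8.73 CPM (SD, n = 3 each). Their groups overlapped.

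Grouped by symbol, 4 of 48 Mrpl genes were higher and 14 lower, and 8 of 29 Mrps genes were higher and 11 lower. Grouped by the subunit in which the protein sits, 5 of 50 large subunit genes were higher and 14 lower (38.0% called), and 7 of 26 small subunit genes were higher and 10 lower (65.4% called), against 52.8% of all tested genes. The medians were -0.22 and -0.19. With offsets for transcript length, added after seeing the data, the large subunit had 13 rises and 7 falls and the small subunit 7 and 4. With offsets for coding length they had 12 and 5, and 11 and 3, so rises then outnumbered falls in both. Without offsets 10.0% of large and 26.9% of small subunit genes were higher, and 28.0% and 38.5% lower. All tested genes were called higher and lower at 23.9% and 29.0% without offsets. Those shares were 26.9% and 26.0% with offsets for transcript length, and 27.4% and 25.9% with those for coding length. Proteins with a bacterial counterpart (45 genes) had 7 rises and 14 falls with a median of -0.22, and mitochondria-specific proteins (30 genes) had 5 rises and 10 falls with a median of -0.13. Mrpl55 and Mrps36 were placed in neither class. Without any single NC replicate the rises were 1 among Mrpl and 3 among Mrps genes, and the falls among Mrps genes were 6, 5 and 10 without NC replicate 1, 2 and 3. No difference between these classes was tested.

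Fold changes of the members followed the length of their coding sequence. Ranked by coding length of the principal GENCODE transcript, the 26 shortest (195 to 477 nt) had 2 rises and 15 falls and a median log2 fold change of -0.62, the 25 of middle length (480 to 753 nt) had 0 rises and 9 falls with a median of -0.29, and the 26 longest (756 to 1326 nt) had 10 rises and 1 fall with a median of 0.31. The shares higher and lower were 7.69% and 57.7% of the shortest, 0% and 36.0% of the middle and 38.5% and 3.85% of the longest. All tested genes of any length had 23.9% and 29.0%, and their calls were not counted by length. The single fall among the longest was Mrpl28, and the rises among the shortest were Mrps6 and Mrpl23. Short genes were lower in AEL across the whole table too: the medians of all tested genes in the same windows of length were -0.55 (927 genes), -0.29 (1438 genes) and -0.11 (3117 genes). In the short and middle windows the members lay near these medians, and in the long window they lay above. Spearman's rho between coding length and log2 fold change was 0.525 over the 77 members and 0.185 over 11379 tested genes, which share libraries and are not independent. Without any single NC replicate, 4 of the longest members and 0 of the shortest were called higher.

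**Figure D3:**
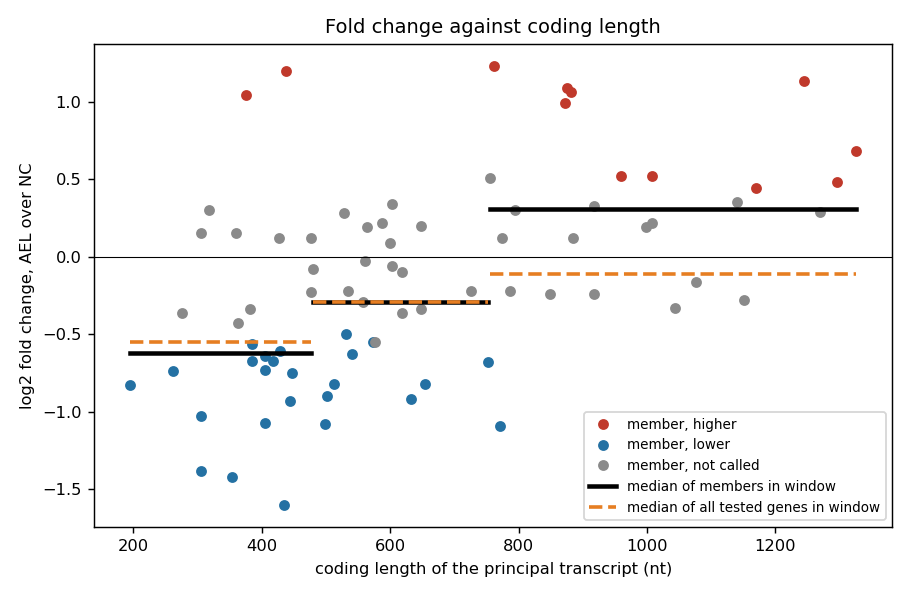
Log2 fold change of AEL over NC against coding length in nucleotides for the 77 members, colored by call, with solid bars for the members' median in 3 windows of length and dashed bars for the median of all tested genes there. Members below 477 nt have a median of -0.62 and those above 756 nt a median of 0.31, where all tested genes have -0.11.

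A fit with offsets for this trend turned the balance of the members. With offsets for transcript length in each library, added after seeing the data, 20 members were higher and 12 lower (26.9% and 26.0% of 11379 genes), and the median became 0.17. With offsets for coding length, 23 were higher and 9 lower (27.4% and 25.9% of genes). Of the 12 rises, 10 were kept with the first and 12 with the second, and of the 25 falls 12 and 9 were kept. The largest changes stayed called in both, with Mrps18b at 1.66 and 1.52, Mrps27 at 1.39 and 1.26, Mrpl14 at -0.97 and -1.14, Mrpl53 at -0.82 and -0.89, and Mrpl28 at -0.65 and -0.81. Such offsets act on any length trend that differs between groups, whatever its source, and the source was not tested. A difference by coding length remained among the members. With offsets for transcript length the medians were 0.01, 0.07 and 0.55 in the shortest, middle and longest members. Rises and falls in these were 4 and 7, 3 and 4, and 13 and 1. With offsets for coding length they were 6 and 4, 4 and 4, and 13 and 1.

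AEL libraries differed from one another for members on a few chromosomes, and on some of these the median over all genes of the chromosome differed too. The 5 members on chromosome 19 (Mrpl49, Mrpl16, Mrpl11, Mrpl21 and Mrpl43) were all lowest in AEL replicate 3, where the median of 334 genes of that chromosome was -0.52 from the AEL mean on the log2(CPM + 1) scale. The 3 on chromosome 14 were all highest in AEL replicate 1, where the median of 300 genes was 0.47. One of them, Mrpl52, was at 107, 94.0 and 52.3 CPM in the AEL libraries, with 114, 124 and 103 CPM in those of NC. On chromosome 3, 4 of 5 members were highest in AEL replicate 2, with a median of 0.26 over 412 genes. Members also shared an order where the chromosome's median barely moved. The 4 on chromosome 2 were all highest in AEL replicate 3, where the median of 703 genes was 0.05. The 3 on chromosome 16 were all highest in AEL replicate 1, where the median of 282 genes was 0.01. Of the 16 members on chromosomes 3, 9, 14 and 19, 1 was higher and 5 were lower (23.9% and 29.0% of all tested genes). A fit without the genes of chromosomes 3, 9, 14, 19 and Y called 10 of the other 61 members higher and 20 lower.

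Chromosome 9 held the most variable member. Mrpl3, which lies near the peptidyl transferase center, was at 47.9, 97.0 and 57.3 CPM in the AEL libraries, with 86.9, 87.8 and 79.0 CPM in those of NC. Mrps22, a mitochondria-specific small subunit protein, was at 27.7, 42.4 and 27.3 CPM in the AEL libraries, with 35.3, 39.1 and 34.8 CPM in those of NC. Both were highest in AEL replicate 2, as was the median of 475 genes of chromosome 9 (0.53 from the AEL mean). Mrpl4 (21002738 to 21008839), a conserved protein of the polypeptide exit tunnel, went the other way, with 171, 57.7 and 121 CPM in the AEL libraries, beside 49.9, 56.7 and 60.6 CPM in those of NC. AEL replicate 2 lay within the NC range and the other AEL libraries lay above it, and the call (log2 fold change 1.06, SE 0.36, edgeR adjusted p = 0.0443) ended without AEL replicate 1 or 3 or any NC replicate, with limma and with a filter at 10 CPM (1.04, edgeR adjusted p = 0.0501). Within 500 kb of Mrpl4 lie 20 other genes with a mean CPM of at least 10. All 20 were highest in AEL replicate 1, and 18 were lowest among AEL libraries in AEL replicate 2.

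**Figure D4:**
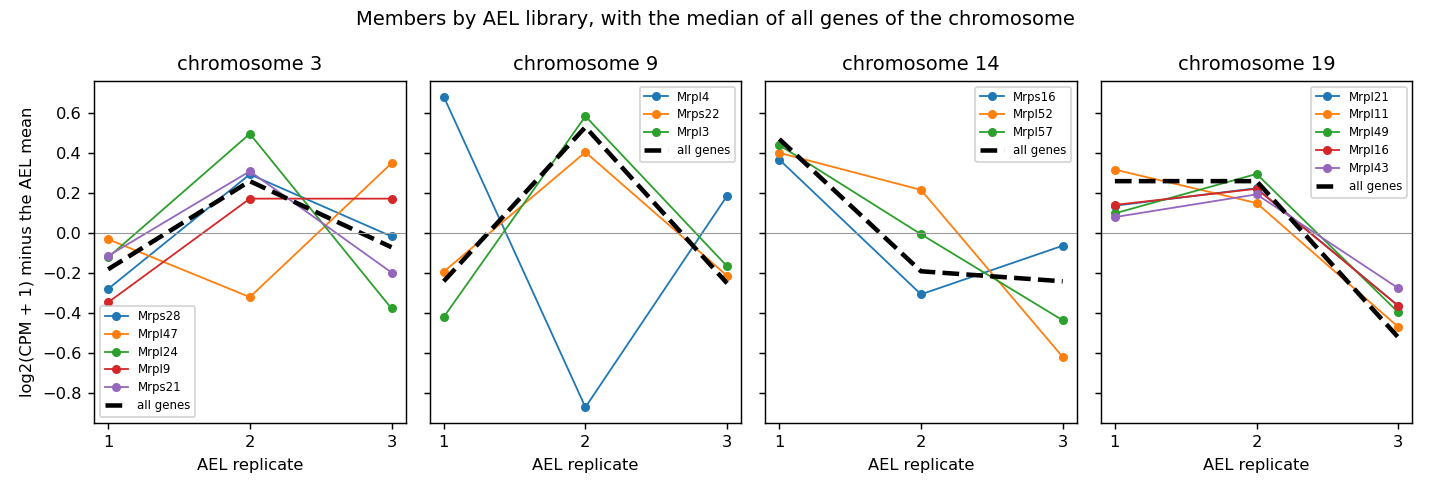
Deviation of each member from its AEL mean, in log2(CPM + 1), in AEL replicates 1 to 3 for chromosomes 3, 9, 14 and 19, with a dashed line for the median of all genes of the chromosome with a mean CPM of at least 10. All 5 chromosome 19 members fall in replicate 3 with the chromosome's median of -0.52, and Mrpl4 runs against the chromosome 9 median.

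Several members share a promoter region with a gene on the opposite strand, and these made 29 pairs with starts within 1000 bases and both genes tested. Mrpl46 and Mrps11 form 1 of them together, so 30 members are involved. Both genes were called in the same direction in 6 pairs (20.7%), in opposite directions in 1 (3.45%), 1 gene alone in 14 (48.3%) and neither in 8 (27.6%). Over all 856 such pairs of tested protein-coding genes these shares were 14.8%, 6.07%, 47.2% and 31.9%, and the difference was not tested. The pairs with 2 rises were Mrps27 with Ptcd2, a mitochondrial pentatricopeptide repeat protein whose start lies 81 bases away inside the stretch printed above (log2 fold changes 1.13 and 0.81), and Mrps5 with Zfp661 (0.48 and 1.65). The pairs with 2 falls were Mrps18c with Helq, a DNA helicase (-0.61 and -1.12), Mrpl51 with Ncapd2, a condensin subunit (-0.56 and -0.83), Mrpl57 with Ska3, a kinetochore protein (-1.03 and -0.83), and Mrpl27 with Eme1, a nuclease subunit (-0.93 and -0.66). Mrpl54 fell by 0.64 while Apba3, 26 bases away, rose by 0.64. Mrps18b rose by 1.23 and its neighbor Ppp1r10, 45 bases away, was at 0.28 (edgeR adjusted p = 0.0828). Neighbors were described after their values were seen.

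Genes that build, feed and use the mitochondrial ribosome were read from lists of their own, and differences between lists were not tested. Of 26 assembly factors 10 rose and 3 fell (median 0.23), led by Eral1, a GTPase that handles the small subunit RNA, at 55.9 ± 6.33 CPM in AEL libraries against 19.9 ± 2.21 CPM in those of NC (SD, n = 3 each, 2.81-fold), and Fastkd2, an RNA-binding factor of the large subunit, which rose 2.30-fold. Mrm1 and Tfb1m, methyltransferases for the large and small subunit RNA, fell by 1.11 and 0.94 on the log2 scale. Without any single NC replicate 3 assembly factors were called higher. Of 17 mitochondrial tRNA synthetases 8 rose and 2 fell, with Mars2 up 4.83-fold and Wars2 up 3.30-fold, and Lars2 at 139, 173 and 165 CPM in the AEL libraries, below the 446, 369 and 379 CPM of NC. Library totals alone gave 12 rises there. Of 10 genes for transcription and replication of mitochondrial DNA 6 rose and 0 fell, such as Tfb2m, a transcription factor (2.77-fold), and Top1mt, a topoisomerase (3.82-fold), and 3, 5 and 4 rose without NC replicate 1, 2 and 3. Of 16 translation factors 2 rose, Gfm1, an elongation factor (1.74-fold), and Lrpprc, which stabilizes mitochondrial messenger RNA (1.68-fold), and library totals alone gave 4. The shares called higher and lower were 38.5% and 11.5% of assembly factors and 47.1% and 11.8% of tRNA synthetases. They were 60.0% and 0% for transcription and replication and 12.5% and 0% for translation factors. All tested genes had 23.9% and 29.0%, and with library totals alone 3800 of 12427 were called higher.

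The respiratory chain, whose core the ribosome makes, was lower in its nuclear part. Of 75 nuclear genes for its subunits 49 fell and 0 rose (median -0.63), with Cox8a at -1.76 (SE 0.26) and Ndufb7 at -1.39 (SE 0.15). The falls made 65.3% of that list, where 29.0% of all tested genes were called lower and 23.9% higher. With offsets for transcript length 21 fell and 5 rose (26.0% and 26.9% of all tested genes), and 31 fell without NC replicate 1 or 2. The median coding length was 432 nt in that list, 576 nt in the members, 1100 nt in the assembly factors and 1660 nt in the tRNA synthetases. The 13 genes for the proteins made by the mitochondrial ribosome summed to 22017 to 25092 CPM in AEL and 25793 to 28283 CPM in NC. As a share of all counts they overlapped, with 2.61%, 2.34% and 2.54% in AEL and 2.68%, 2.47% and 2.39% in NC. Of these, ND4L rose by 0.79 (SE 0.14) and ND5 by 0.73 (SE 0.12), 3 fell, among them COX2 at -0.64 (SE 0.13) and COX1 at -0.54 (SE 0.19), and 8 were not called. Calls thus covered 15.4% higher and 23.1% lower of the 13 genes, against 23.9% and 29.0% of all tested genes. With library totals alone 4 of them rose and 1 fell, and the falls were 1, 2 and 2 without NC replicate 1, 2 and 3.

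Proteins of the same ribosome that carry other symbols were read beside the members. Of 6 such genes 1 rose and 3 fell: Ptcd3 was at 126, 140 and 150 CPM in the AEL libraries, with 81.9, 82.3 and 73.9 CPM in those of NC (1.75-fold), Ict1, a peptidyl-tRNA hydrolase built into the large subunit, fell by 0.63 (SE 0.15), and Aurkaip1 fell by 0.55 (SE 0.18). Without NC replicate 2 the falls numbered 0. Among 9 regulators of mitochondrial gene programs 3 rose and 1 fell (33.3% and 11.1%, against 23.9% and 29.0% of all tested genes). Myc rose 5.25-fold, from 74.0 ± 5.24 CPM in NC to 389 ± 46.1 CPM in AEL, Pprc1, a coactivator of the PGC-1 family, rose 1.69-fold (SD, n = 3 each), and Esrra, an estrogen-related receptor, was lower at -0.93 (SE 0.31, edgeR adjusted p = 0.0414). No regulator was called lower with library totals alone, without AEL replicate 2 or 3, without any single NC replicate or with length offsets. Without NC replicate 1 or 2 only 1 of these regulators was called higher, and with library totals alone 5 were.

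**Figure D5:**
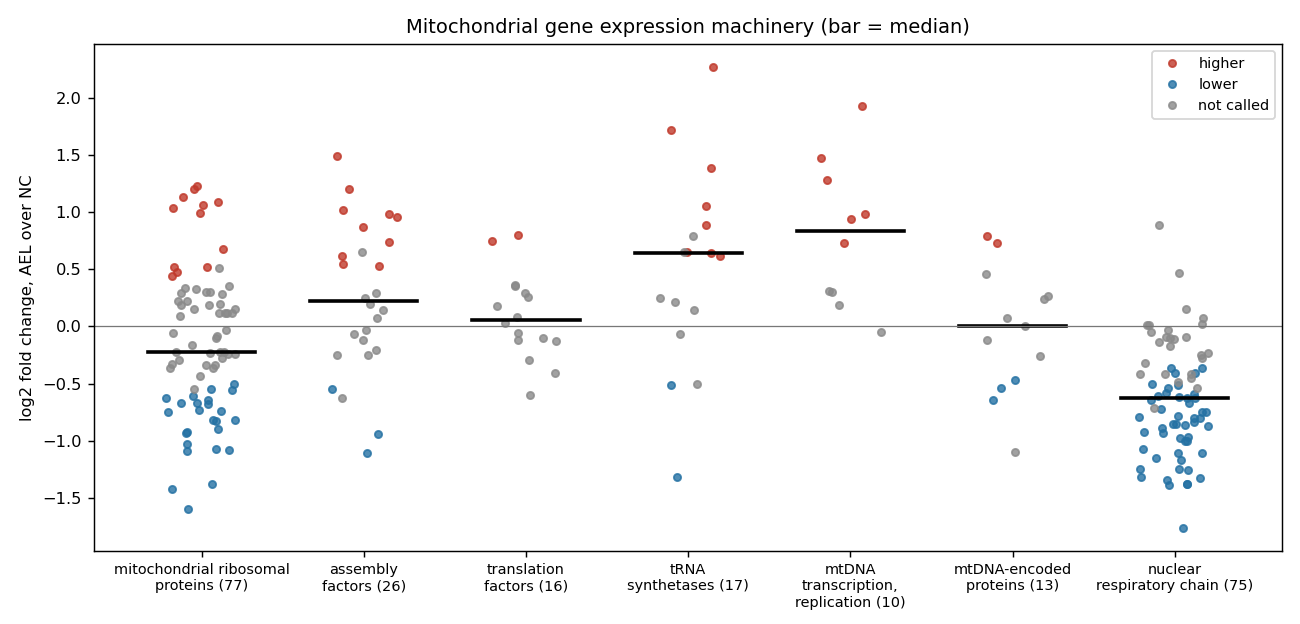
Log2 fold change of AEL over NC for the 77 mitochondrial ribosomal protein genes and 6 lists of related mitochondrial genes, with 1 point per gene, colors for the edgeR call and a bar for the median. Medians run from -0.63 for the nuclear respiratory chain through -0.22 for the ribosomal proteins to 0.83 for transcription and replication of mitochondrial DNA.

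Within groups the members varied moderately. The coefficient of variation of a member's CPM had a median of 13.9% in AEL and 10.0% in NC, and it was larger in AEL for 49 of 77 members. The highest values were 48.7% for Mrpl4 in AEL and 40.8% for Mrpl23 in NC, where Mrpl23 had 14 to 26 counts per library. Of the members 36 were lowest among the AEL libraries in replicate 2, 22 in replicate 3 and 19 in replicate 1.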

How the data were processed

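The authors deposited 1 table of whole-number counts per gene for 3 AEL and 3 NC libraries of poly-A RNA, per the labels' protocols; its name says CPM, but column totals differ. Per the submitters' processing notes, mm10 was the build and edgeR 3.32.1 a tool of unstated use. Aligner, counter and strandedness: not given in the sources used here. Groups came from sample titles. Genes reaching 1 CPM in 3 or more libraries (12427 of 13007) were tested with edgeR 4.0.16 (R 4.3.3), TMM scaling and the group as the only term, with Benjamini-Hochberg adjustment over all of them at 0.05. CPM values are counts over library totals multiplied by TMM factors. SEs were derived from each log2 fold change and its quasi-likelihood F (size over root F). Alternatives used limma 3.58.1, DESeq2 1.42.0, other scalings and filters, a replicate block, left-out libraries and length offsets. The test was checked on counts simulated with the same spread in both groups, so the check does not cover the wider spread in AEL. Lengths and overlaps came from GENCODE vM21 (91.6% of tested genes had a length), and promoters from RefSeq. Printed genes were the 6 largest rises and falls with separated groups and a mean CPM of at least 10 in the higher group, the 4 nearest 0, the 4 most variable in AEL, members with a fixed role, and up to 2 rises and 2 falls per related list. Members and lists were chosen with earlier results of these data known. Intervals of single counts are not given, and at these totals 3 counts equal 0.302 to 0.367 CPM.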

Additional observations from a re-analysis of the deposited data

How the results depend on the processing

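Against 12 members higher and 25 lower, upper-quartile scaling gave 7 higher and the replicate block 5 higher (22 lower). Leaving out 1 library at a time gave 4 to 13 members higher and 17 to 25 lower, and 1672 to 3253 genes higher and 1780 to 3834 lower among all genes. All genes numbered 2965 higher and 3599 lower with all 6 libraries, and each omission of an NC library left at most 1776 higher and 1812 lower. Offsets for transcript length gave 20 higher and 12 lower, for coding length 23 and 9, and for transcript length with GC content 22 and 11; these were chosen after seeing the data. The cause was not tested. Among single members, transcript length offsets moved Mrpl30 from -0.08 to 0.4 and Mrps18c from -0.61 to 0.03, and Mrpl30 was at 0.35 with GC content added. Under the other scalings, filters, tools, the block and left-out libraries, no called member changed sign. Sample titles number the replicates without naming a pairing of AEL with NC. Deviations of same-numbered AEL and NC libraries from their group means correlated at 0.062, -0.033 and -0.056. With 3 libraries per group such values cannot exclude a pairing. The block kept 5 of the 12 rises and 22 of the 25 falls, and whether a block is apt cannot be told. The rises no longer called with the block include Mrpl4 (0.94, edgeR adjusted p = 0.083) and Mrps6 (1.00, edgeR adjusted p = 0.0532), and Esrra was not called with it. Labels name no batch. The 3 libraries per group and the wider spread in AEL (coefficient of biological variation 44.1%, against 9.01% in NC) limit what small fold changes can show.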
